A study of Mus musculus with 2 samples.

Results

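Strc, Tfap2a, Dmrta2, Ddr2, Onecut2 and Khdc1a are 6 genes, of 31053 in the deposited gene list, whose transcripts were counted almost only in the library labelled GFP. They were chosen for that difference between the libraries. The ratio between libraries is therefore given as a description and supports nothing. What the choice did not use is which GFP cells carry the transcripts, how they are spread over those cells, whether the genes occur in the same cells, and what the genes around them do. The number of cells with a transcript in each library largely follows from the choice, since most such cells held a single one.

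The data are single-cell RNA counts from mouse colon epithelium in 2 libraries, with 1 library per group. Whole epithelium was taken from untreated mice of the genotype c-Kit-creERT2, which carry a tamoxifen-dependent Cre recombinase driven by the Kit gene. For the GFP library the genotype was c-Kit-creERT2;Rosa26-mTG, where recombination switches a reporter to GFP in Kit-expressing cells and their progeny. Those mice received tamoxifen at 1 mg per 20 g body weight, and GFP-positive cells were sorted. Cre is shared by both groups, while the reporter, tamoxifen and the sort belong to the GFP group alone. Age, sex and the number of animals pooled are not given in the sources used here.

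The matrices were filed crosswise in the records and were assigned to the libraries by the length of the barcode lists, so every direction below rests on that assignment. Gt(ROSA)26Sor, the transcript of the reporter's locus, stood at 33.8 CPM in whole epithelium and 1.14 in GFP. CPM are UMIs (unique molecular identifiers, counted transcripts) per 1000000 UMIs of the library, class or cluster. The female-specific Xist stood at 0.0652 and 750.0 CPM, and the Y-linked Ddx3y at 35.4 and 0. Sex, genotype, tamoxifen, sorting and library preparation all change together between the libraries and cannot be told apart. After filtering, 7762 whole-epithelium cells (median 14160 UMIs) and 5767 GFP cells (median 15821 UMIs) were kept. Of the kept barcodes, 19 occurred in both libraries. All intervals below are 95% intervals and cover counting error only, neither animals nor preparation. Those of levels and ratios treat UMIs as independent and are too narrow where a few cells hold many of them.

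None of the 6 genes is a usual marker of colon epithelium. Tfap2a encodes AP-2 alpha, a transcription factor of neural crest and epidermis, and Dmrta2 and Onecut2 encode transcription factors known from the developing brain and from the liver, pancreas and nervous system. Ddr2 encodes a collagen-binding receptor tyrosine kinase typical of fibroblasts, Strc encodes stereocilin of the inner ear's hair bundles, and Khdc1a belongs to a KH-domain family known from oocytes and early embryos.

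For the transcription factors, Tfap2a had 3 UMIs in whole epithelium and 231 in GFP, or 0.0217 and 2.13 CPM. Dmrta2 had 28 and 1120 UMIs, or 0.203 and 10.3 CPM. Onecut2 had 5 and 106 UMIs, or 0.0362 and 0.977 CPM. All 3 were low in both libraries, and the whole-epithelium counts were too small to place their levels within a narrow range. The log2 ratio of GFP over whole epithelium was 6.61 (5.05 to 8.9) for Tfap2a, 5.67 (5.13 to 6.26) for Dmrta2 and 4.75 (3.48 to 6.4) for Onecut2.

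Of the other 3 genes, the receptor gene Ddr2 had 10 and 329 UMIs, or 0.0725 and 3.03 CPM, a log2 ratio of 5.39 (4.49 to 6.46). Strc had 3 and 289 UMIs, or 0.0217 and 2.66 CPM, a log2 ratio of 6.94 (5.37 to 9.22). Khdc1a had 28 and 544 UMIs, or 0.203 and 5.01 CPM, a log2 ratio of 4.63 (4.08 to 5.23). All 6 genes were at least 16-fold higher in GFP, as were 21 (0.163%) of the 12873 genes with at least 100 UMIs over both libraries, while 99 (0.769%) were at least 16-fold lower. Nothing is read from that count, since the genes were chosen on this contrast.

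**Figure D1:**
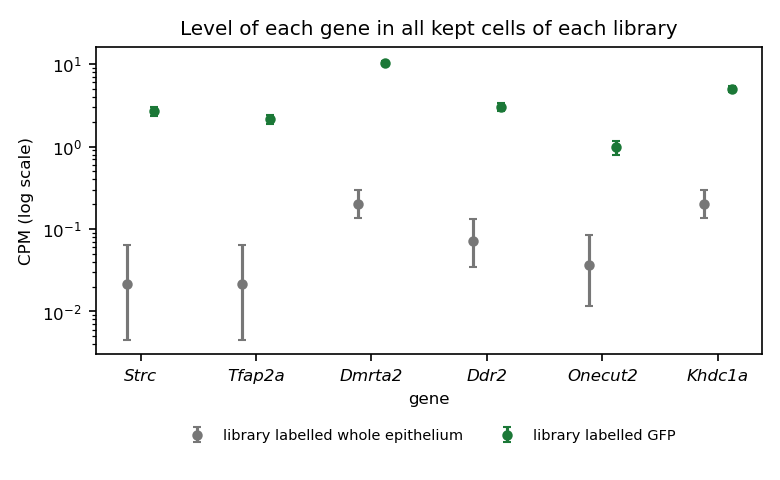
CPM (log axis) of each gene in the library labelled whole epithelium (grey) and the library labelled GFP (green), 1 library each, with exact Poisson 95% intervals. The grey points lie between 0.0217 and 0.203 and the green points between 0.977 and 10.3.

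Cells with these transcripts were common in the GFP library and usually held a single one. A UMI of any of the 6 genes was found in 1487 (25.8%) of 5767 GFP cells and in 58 (0.747%) of 7762 whole-epithelium cells. In GFP, 1176 cells held 1 of the genes, 266 held 2, 41 held 3 and 4 held 4, while no whole-epithelium cell held more than 1. With so few UMIs in whole epithelium, by the choice of the genes, its counts of cells had to be low. Nothing is read from this contrast of the libraries. Dmrta2 was detected in 860 GFP cells (14.9%), Ddr2 in 285 (4.94%), Strc in 268 (4.65%), Tfap2a in 206 (3.57%), Khdc1a in 150 (2.6%) and Onecut2 in 78 (1.35%).

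Detection followed depth. In the shallowest, middle and deepest tertile of GFP cells Dmrta2 was detected in 2.65%, 11.9% and 30.2%, and Strc in 0.676%, 4.32% and 8.94%. Thinned to 5000 UMIs per cell, with 1804 shallower GFP cells left out, the shares were 4.68% for Dmrta2, 1.38% for Strc, 1.32% for Khdc1a, 1.31% for Ddr2, 0.894% for Tfap2a and 0.424% for Onecut2. The corresponding thinned shares in whole epithelium lay between 0.0123% for Tfap2a and 0.0937% for Dmrta2, with 2402 cells left out. These too were low by the choice of the genes.

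Khdc1a differed from the other genes in how its UMIs were spread over cells. Its 10 highest GFP cells held 47.8% of its UMIs, and 11 cells held 50% of them. The highest single cell had 66 UMIs of Khdc1a and the next 48. The 10 highest cells of Onecut2 held 28.3% of its UMIs, with 6 in the highest cell. For Tfap2a, Ddr2, Strc and Dmrta2 that share was 9.96%, 7.6%, 7.27% and 3.75%, and no cell had more than 5 UMIs. Of the Strc-positive cells 92.5% had exactly 1 UMI, against 64.0% of the Khdc1a-positive cells.

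**Figure D2:**
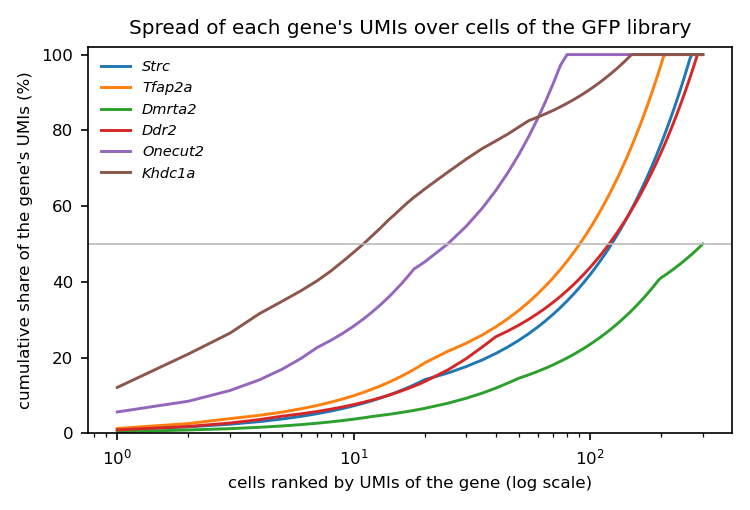
Cumulative share of each gene's UMIs (vertical axis, percent) held by the cells of the GFP library ranked by their UMIs of that gene (horizontal log axis, up to 300 cells), with a grey line at 50%. Khdc1a reaches 50% at 11 cells and Onecut2 at 25, while Dmrta2 needs 300.

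Classes were named from marker genes after clustering without the 6 genes. In GFP there were 1601 colonocyte-like cells (absorptive), 1026 goblet-like cells (mucus-secreting), 942 stem/TA-like cells (stem and transit-amplifying), 109 enteroendocrine-like cells (hormone-secreting), 44 tuft-like cells and 62 T/NK-like cells (lymphocytes). A further 596 cells had no name, and 1385 shallow cells with a median of 1807 UMIs were left unnamed. Any of the 6 genes was detected in 42.7% of stem/TA-like, 39.5% of goblet-like, 24.5% of colonocyte-like and 16.5% of enteroendocrine-like GFP cells, at median depths of 25117, 23480, 18543 and 3653 UMIs. Per UMI the order of these classes was another. Among them the 6 genes together were lowest in stem/TA-like cells (23.2 CPM) and highest in enteroendocrine-like cells (29.7, from 23 UMIs). Colonocyte-like cells stood at 25.5, and there Khdc1a alone gave 422 of the 835 UMIs. Tuft-like cells stood above this range, and T/NK-like cells and both groups of unnamed cells below it. No intervals are given for these sums, and their order is not that of each gene.

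Dmrta2 had its highest level among the 3 large named classes in goblet-like cells. There it had 421 UMIs, or 15.2 CPM (13.8 to 16.7), against 10.6 (9.39 to 11.8) in stem/TA-like and 6.34 (5.51 to 7.27) in colonocyte-like cells. The 3 intervals did not overlap. After thinning, 7.54% of goblet-like, 4.76% of stem/TA-like and 2.77% of colonocyte-like cells had a Dmrta2 UMI. The same order held when the resolution was doubled, when each library was clustered alone and without the 5% deepest cells.

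Tfap2a and Ddr2 were lower in colonocyte-like cells than in the other 2 large classes. Tfap2a stood at 2.78 CPM (2.19 to 3.47) in goblet-like, 2.76 (2.18 to 3.45) in stem/TA-like and 0.976 (0.668 to 1.38) in colonocyte-like cells. Ddr2 stood at 3.61 (2.94 to 4.39), 4.23 (3.5 to 5.06) and 1.4 (1.03 to 1.87) in the same order. For both genes the intervals of goblet-like and stem/TA-like cells overlapped, and that of colonocyte-like cells lay below them. The 3 colonocyte-like clusters were not alike for Ddr2. Cluster 17, led by Car1, Slc51a and Cyp2c55, had 0.36 CPM of Ddr2, while clusters 3 and 13 had 1.58 and 2.12.

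Onecut2 was low in all 3 large classes, at 1.47 CPM (1.05 to 1.99) in stem/TA-like, 0.793 (0.518 to 1.16) in colonocyte-like and 0.758 (0.469 to 1.16) in goblet-like cells. The interval for stem/TA-like cells overlapped both others. Within that class clusters 7 and 18 were both named by cycling markers. Cluster 7 held 35 UMIs in 25 cells (1.92 CPM). Cluster 18, led by Trf and Ttr with Ube2c, Tpx2 and Top2a also among its leading genes, held 6 UMIs, all of them in 1 cell. In enteroendocrine-like cells 4 UMIs in 4 of 109 cells gave 5.17 CPM (1.41 to 13.2), above the interval of colonocyte-like and of goblet-like cells.

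Strc was spread most evenly over the large classes. It stood at 3.08 CPM (2.51 to 3.74) in colonocyte-like, 2.6 (2.03 to 3.27) in goblet-like and 2.44 (1.89 to 3.09) in stem/TA-like cells, and the 3 intervals overlapped. Among the clusters of these classes it ran from 1.32 in the colonocyte-like cluster 17 and 1.43 in the stem/TA-like cluster 7 to 4.33 in cluster 18, of the same class as cluster 7. The tuft-like cells held 7 Strc UMIs in 5 of 44 cells.

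Khdc1a sat largely in 1 cluster. The colonocyte-like cluster 13, led by Clca4b, Tgm3, Atp12a and Ly6g, held 398 of the 544 UMIs, in 57 of its 424 cells, or 49.7 CPM. The next levels among clusters of at least 50 cells were 5.77 in the enteroendocrine-like cluster 22, where 3 UMIs were counted, and 4.22 in cluster 18. All of the 10 highest Khdc1a cells were in cluster 13. Of its cells 19 had at least 5 UMIs, against 5 of the 5343 cells elsewhere, where the highest had 12. Most cells of cluster 13 had no Khdc1a UMI.

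The few Khdc1a transcripts of whole epithelium lay in a cluster with several of the same leading genes. Cluster 14 of that library, which Atp12a, Ly6g, Tgm3, Slc37a2 and Eno3 also led, made up 5.48% of its cells and held 20 (71.4%) of its 28 Khdc1a UMIs. Of these, 13 came from 1 cell, and without it 7 remained. The level was 2.77 CPM in cluster 14 and 49.7 in cluster 13 of GFP, a log2 ratio of 4.17 (3.52 to 4.89) between these clusters of the 2 libraries. This interval treats UMIs as independent and is too narrow, since in both clusters a few cells held many of them.

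**Figure D3:**
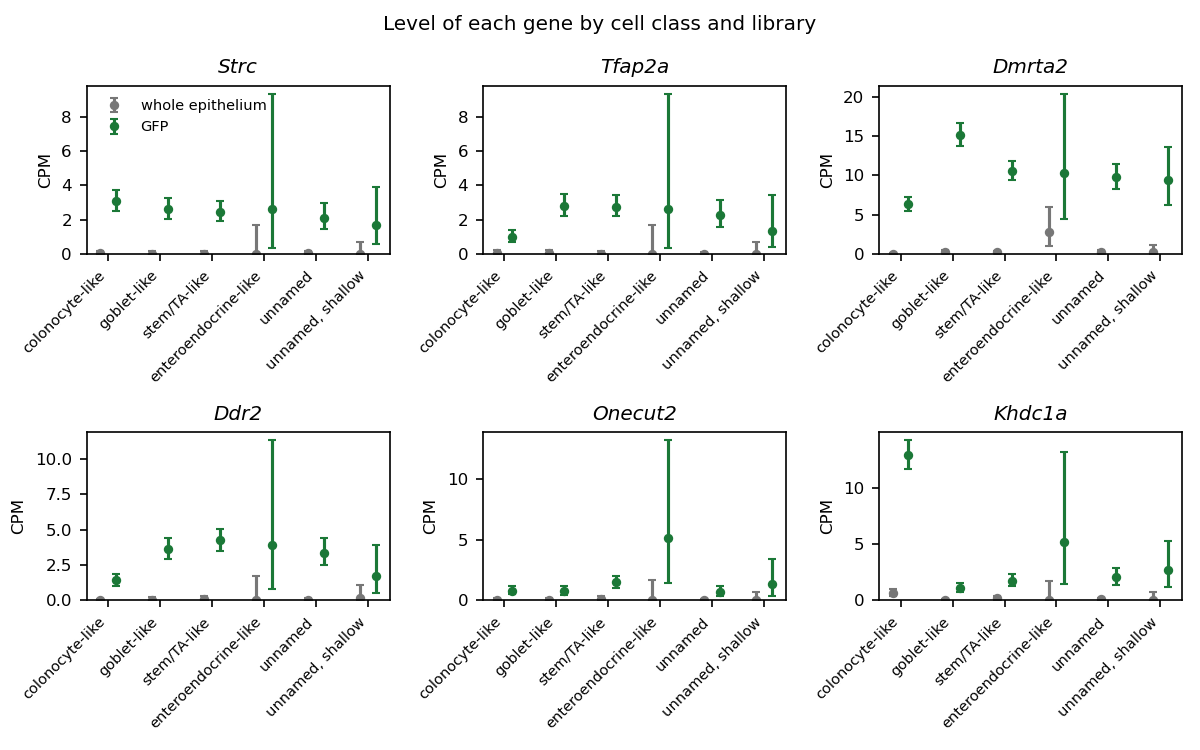
CPM (vertical axes, starting at 0) of each gene by cell class in the library labelled whole epithelium (grey) and the library labelled GFP (green), 1 library each, with exact Poisson 95% intervals. Dmrta2 is highest among large GFP classes in goblet-like cells (15.2) and Khdc1a in colonocyte-like cells (12.9), while the highest grey point is Dmrta2 in enteroendocrine-like cells (2.74) and Khdc1a in colonocyte-like cells has a grey point at 0.664.

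With 3 to 28 UMIs per gene in whole epithelium, by the choice of the genes, counts within its classes had to be low, and the levels by class and library are a description from which nothing is read. Different clusters make up these classes in the 2 libraries: goblet-like cells were clusters 12, 15, 16 and 21 in whole epithelium and cluster 2 in GFP, stem/TA-like cells cluster 4 against 7 and 18, and colonocyte-like cells clusters 5, 8, 14 and 20 against 3, 13 and 17. The name of cluster 16 (383 cells) is doubtful, since Chgb, Clca4a, Clca4b and Ly6g were among its 10 leading genes beside Fcgbp and Reg4. In goblet-like cells 4 of the 6 genes were at least 16-fold higher in GFP, where 0.187% of all genes measured there were, and Onecut2 and Khdc1a, with 0 UMIs in whole epithelium and 21 and 30 in GFP, did not reach that ratio. In stem/TA-like cells the same 4 genes were (background 0.27%), and Onecut2 (3 and 41 UMIs) and Khdc1a (4 and 49) did not. In colonocyte-like cells 4 of the 6 were (background 0.24%), and Tfap2a (2 and 32 UMIs) and Ddr2 (0 and 46) did not. For these ratios 3 UMIs stood in for a class count of 0, so a gene with 0 UMIs that missed the limit may still lie above it.

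Enteroendocrine-like cells held Dmrta2 in both libraries. In whole epithelium they held 6 of its 28 UMIs in 4 of 329 cells, 3 of them in 1 cell, or 2.74 CPM (1.01 to 5.97). This lay above the interval for goblet-like cells of the same library (0.0448 to 0.421, or 0.0572 to 0.538 without cluster 16). It also lay above those of stem/TA-like, colonocyte-like and the deeper unnamed cells. The interval overlapped those of T/NK-like (0.16 to 4.77), tuft-like (0.0 to 9.86) and unnamed shallow cells (0.00485 to 1.07). In GFP, enteroendocrine-like cells stood at 10.3 (4.47 to 20.4), and the intervals of the 2 libraries overlapped in this class.

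Ddr2 is a fibroblast gene by reputation, so fibroblast markers were counted in the library and classes that held it. In whole epithelium its 2 highest cells, with 2 UMIs each, were fibroblast-like. The GFP library had 2 fibroblast-like cells, 1 of which held 2 of its 329 Ddr2 UMIs, and over all its kept cells the fibroblast markers Col1a1, Col1a2, Pdgfra, Lum and Col3a1 had 1, 1, 2, 7 and 8 UMIs and Dcn had 306. In goblet-like and stem/TA-like GFP cells, which held 100 and 118 Ddr2 UMIs, 1 and 2 of the 6 fibroblast markers were detected, at summed levels of 0.144 and 0.179 CPM. The epithelial marker Epcam stood at 1930.0 CPM in the GFP library and at 1790.0 in whole epithelium. Markers were not counted in the Ddr2-positive cells themselves, so which kind of cell made these UMIs was not tested.

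Free RNA also puts single UMIs into cells that do not make them, and the level of that background could not be set here. The 62 T/NK-like cells of GFP (median 1908.5 UMIs) carried much epithelial RNA, with the T/NK markers at a summed 1450 CPM beside 10900 for the goblet and 8660 for the colonocyte markers. In T/NK-like cells of whole epithelium these sums were 7430, 1760 and 3210. In GFP 1 T/NK-like cell held 2 Strc UMIs, or 10.5 CPM (1.27 to 37.8), and the other 5 genes had none. That count of 0 allows up to 15.7 CPM, which is above the level of each of the 5 genes in each large class, and a share of up to 4.84% of cells. At this depth no gene could be told from background in the large classes by this comparison, Strc among them, nor could Dmrta2 in the unnamed shallow cells (25 of 1385, 1.81%). Between the large classes at least 1 pair of intervals did not overlap for Dmrta2, Tfap2a, Ddr2 and Khdc1a, while those of Strc and of Onecut2 all overlapped. Between single clusters of these classes they could be apart. Strc stood at 0.932 to 2.09 in cluster 7 and 3.12 to 5.85 in cluster 18, and Onecut2 at 1.34 to 2.67 in cluster 7 and 0.0302 to 0.902 in cluster 13. The overlap of classes therefore does not sort the genes by background. Of the whole-epithelium T/NK-like cells 1 of 250 held 2 Dmrta2 UMIs.

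Cells with 1 of the genes often held Dmrta2 as well, but these cells were also deeper. Dmrta2 was detected in 82 (39.8%, 33.1% to 46.8%) of 206 Tfap2a-positive cells and in 778 of 5561 others, at median depths of 36740 and 15204 UMIs. It was found in 92 (32.3%) of 285 Ddr2-positive cells against 768 of 5482 others, and in 25 (32.1%) of 78 Onecut2-positive cells against 14.7%. For Strc the shares were 23.1% and 14.5%, and for Khdc1a 20.7% and 14.8%, where the intervals overlapped.

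Without the 5% deepest cells Dmrta2 was detected in 31.6% (24.3% to 39.6%) of Tfap2a-positive cells and 12.7% of others, and in 27.2% (21.5% to 33.5%) of Ddr2-positive cells and 12.6% of others. The middle tertile of depth held few positive cells, 42 with Tfap2a and 61 with Ddr2, and the intervals there were wide. In that tertile (6223 to 22693 UMIs), Dmrta2 was detected in 7 (16.7%, 6.97% to 31.4%) of 42 Tfap2a-positive cells and in 11.8% of others. For Ddr2 the shares were 16.4% and 11.7%, and for Strc 9.64% and 12.0%. No cell of it held both Tfap2a and Ddr2, or Strc with either of them. Within goblet-like cells, not matched for depth, Dmrta2 was found in 47.8% (35.6% to 60.2%) of Tfap2a-positive and 27.1% of other cells, and in 49.4% of Ddr2-positive and 26.6% of other cells. Khdc1a and Tfap2a met in 3 cells of 5767. In colonocyte-like cells none of 75 Khdc1a-positive cells held Tfap2a (0% to 4.8%), an interval that contains the 2.03% of the others.

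**Figure D4:**
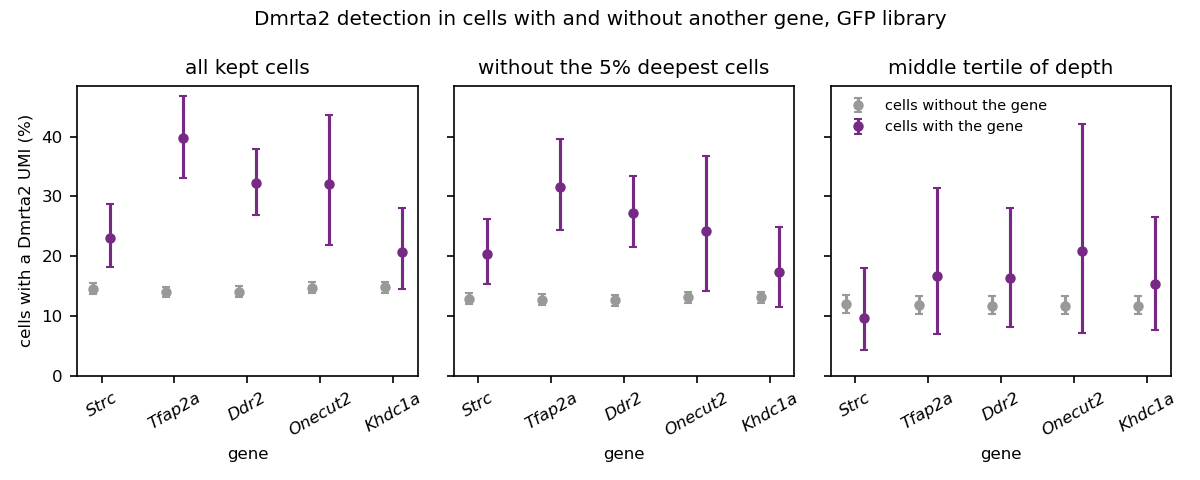
Share of GFP cells with a Dmrta2 UMI (percent) among cells with (purple) and without (grey) a UMI of the gene on the horizontal axis, with exact 95% intervals, in all kept cells, without the 5% deepest and in the middle tertile of depth. With Tfap2a the share is 39.8% in all kept cells, above that of cells without it, and in the middle tertile the shares are 16.7% and 11.8%.

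Over the 10 GFP clusters with at least 50 cells, log2(CPM + 1) of Tfap2a ran with that of Ddr2 (Pearson r = 0.92) and Dmrta2 (r = 0.86). Without the T/NK-like cluster, which had 2 Strc UMIs and no other, these were 0.86 and 0.86 over 9 clusters. Strc and Dmrta2 had r = -0.83 over 10 clusters and -0.4 over 9, a relation that rests on that cluster. These points share 1 library and differ in depth. For each of the 6, the gene most like it was the highest r among all genes with at least 100 UMIs in GFP. Over 10 points such a search gives high values by itself, so nothing is read from them. The gene most like Dmrta2 was Tmem56 (r = 0.99, 2602 UMIs in whole epithelium and 2283 in GFP), and that most like Tfap2a was Mthfd1l (r = 0.98, 984 and 738 UMIs). Khdc1a was most like Adgrf1 (r = 0.97), an adhesion G protein-coupled receptor gene, which itself had 96 UMIs in whole epithelium and 309 in GFP, a log2 ratio of 2.03. Strc was most like Nlrc5 (r = 0.94), Ddr2 most like A930024E05Rik (r = 0.98) and Onecut2 most like Gm48619 (r = 0.97). Over 9 clusters these 6 correlations, computed again only for the genes already picked, lay between 0.83, for Strc with Nlrc5, and 0.97. Of these 6 genes, Adgrf1 alone was at least 2-fold higher in GFP, as were 2.56% of the genes with at least 100 UMIs.

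The genes lie on 5 chromosomes of GRCm38 (mm10). Strc is at chr2:121363728-121387168, Tfap2a at chr13:40715302-40738376, Dmrta2 at chr4:109978053-109983687, Ddr2 at chr1:169972307-170110762, Onecut2 at chr18:64340020-64400987 and Khdc1a at chr1:21349641-21352200. Of the 5 annotated genes on each side, 60 in all, 35 had at least 20 UMIs over both libraries. Among these 16 were higher in GFP, 4 of them at least 2-fold, and 3 were at least 2-fold lower, with a median log2 ratio of 0.0. Of all 15223 genes with that many UMIs 46.3% were higher, 3.97% at least 2-fold higher and 10% at least 2-fold lower, with a median of -0.03. The neighbour counts used log2 ratios rounded to 2 decimals, those over all genes did not. Gsta3 near Khdc1a, at 1.0 (0.911 to 1.09), reached the 2-fold limit only by rounding. Map1a and Txnl1, at 0.0, were not counted as higher.

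The nearest neighbour of Dmrta2 was also counted in GFP alone. Dmrta2os, a non-coding gene on the opposite strand separated from the start of Dmrta2 by 239 bases, had 0 UMIs in whole epithelium and 54 in GFP, at least 4.52 higher on the log2 scale against a floor of 3 UMIs, before counting error in the 54. The 54 UMIs lay in 54 cells, with 28 in goblet-like, 18 in stem/TA-like and 2 in colonocyte-like cells, or 1.01 CPM (0.671 to 1.46), 0.645 (0.382 to 1.02) and 0.061 (0.00739 to 0.22). Dmrta2 itself was detected in 26 (48.1%, 34.3% to 62.2%) of these cells and in 14.6% of the others, at median depths of 35417 and 15605 UMIs. The next genes on either side, Faf1 and Elavl4, had log2 ratios of -0.15 and -0.18.

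The start of Dmrta2os (chr4, base 109977813) falls inside the 250 bases before the start of Dmrta2 in RefSeq (GRCm38.p6), which are shown for that reason on the plus strand, chr4:109977775-109978024. The capitals mark a match to the AP-2 consensus GCCNNNGGC, 71 bases before the start.
Dmrta2: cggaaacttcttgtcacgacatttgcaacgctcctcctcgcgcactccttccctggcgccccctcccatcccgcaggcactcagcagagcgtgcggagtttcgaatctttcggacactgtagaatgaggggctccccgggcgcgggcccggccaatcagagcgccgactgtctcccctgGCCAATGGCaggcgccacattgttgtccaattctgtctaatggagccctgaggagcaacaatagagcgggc
Such a match, on either strand, was present in 13.7% of 32851 RefSeq windows of the same length. The Dmrta2 window was 61.6% G or C, beside a median of 52.4% over all windows, so this share is not that of windows of like composition. The onecut core ATCAAT was present in 6.72% of windows and not in this one. Neither was found in the windows of Strc and Ddr2 or in the 2 windows of Tfap2a. Windows of 4 of the 6 genes were searched, and a match of letters is a description, not a bound site.

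Tfap2a is overlapped on the opposite strand by non-coding genes, and 2 of them had UMIs. Gm47061 had 6 UMIs in whole epithelium and 27 in GFP, a log2 ratio of 2.52 (1.21 to 4.08), and Gm26688 had 0 and 6. Tfap2a was detected in 2 of the 27 Gm47061-positive cells. How reads were assigned by strand is not given in the sources used here. Whether any reads of these genes were counted for Tfap2a was not tested.

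The genes beside the other members did not show such ratios. The creatine kinase gene Ckmt1, whose end overlaps that of Strc by 10 bases on the opposite strand, had 858.0 and 843.0 CPM, a log2 ratio of -0.03. The 8 measured neighbours of Strc ran from -0.53 to 0.37. The 7 of Onecut2 ran from -0.4 to 0.08, and the 7 of Ddr2 from -2.45 (Rgs4) to 0.19. Near Khdc1a, its relatives Khdc1b and Khdc1c had 2 and 0 UMIs in whole epithelium and none in GFP, while the glutathione transferase gene Gsta3 had a log2 ratio of 1.0 and Tram2 one of -1.07. Reads of such near-identical relatives may be split in counting, so the assignment within that family is uncertain.

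**Figure D5:**
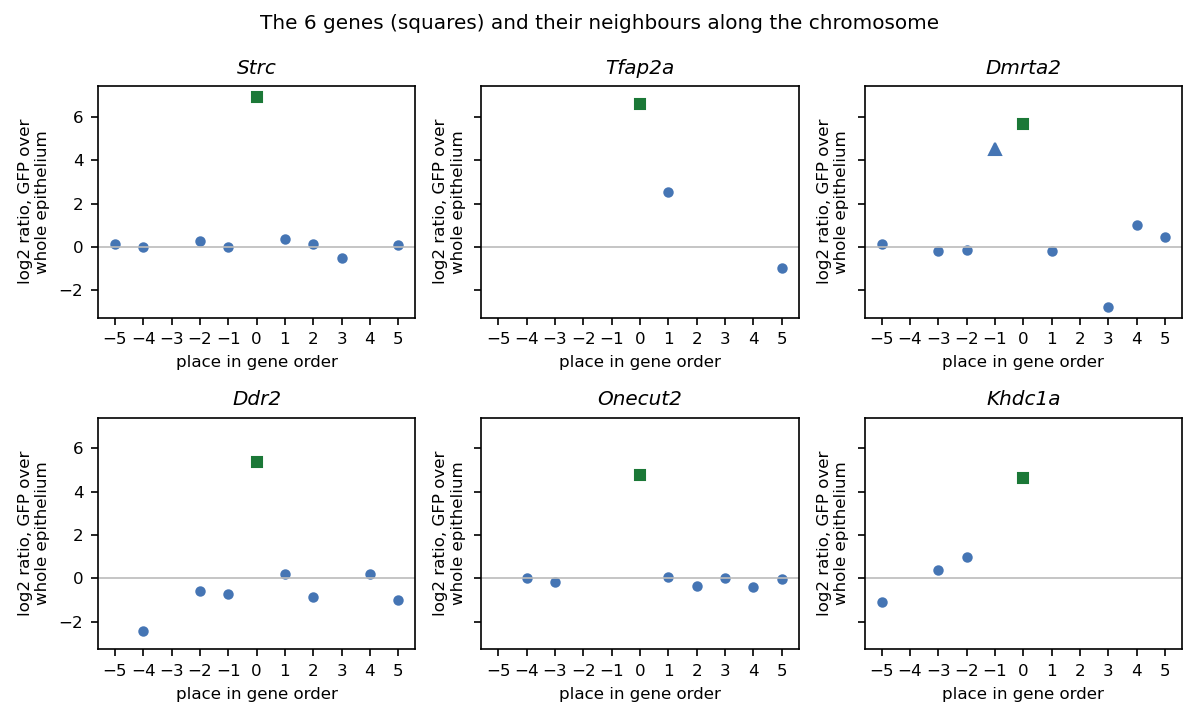
Log2 ratio of GFP over whole epithelium (vertical axis) of each of the 6 genes (green squares, at 0) and of the measured genes among the 5 on each side in gene order (blue). The triangle is Dmrta2os, at 4.52 against a floor of 3 UMIs, and Gm47061 beside Tfap2a stands at 2.52.

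The AP-2, DMRT, onecut and discoidin receptor relatives of these genes were either rare in both libraries or not higher in GFP. None of the other AP-2 genes (Tfap2b, Tfap2c, Tfap2d, Tfap2e) had more than 2 UMIs in a library. Dmrta1, the only other DMRT gene with at least 20 UMIs, was lower in GFP with 26 and 5 UMIs, a log2 ratio of -2.03 (-3.77 to -0.629). Onecut1 had no UMI and Onecut3 had 1 and 2. The second collagen receptor, Ddr1, stood at 41.8 and 38.6 CPM, a log2 ratio of -0.12.

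Of the 71 genes in 8 lists of relatives and of genes that work with these families, 32 had at least 20 UMIs. Of these, 3 (9.38%) were at least 2-fold higher in GFP and 6 (18.8%) at least 2-fold lower, beside 3.97% and 10% of all genes with that many UMIs. Of 8 onecut relatives and foregut or hepatic factors 6 were measured, with a median log2 ratio of 0.01, and 1 was at least 2-fold higher: Pdx1, a duodenal and pancreatic transcription factor, with 36 and 341 UMIs and a log2 ratio of 3.59 (3.09 to 4.13). Of 12 discoidin receptor and collagen genes 8 were measured and all 8 had log2 ratios below 0, 4 of them past 2-fold, with Col1a2, Col1a1 and Col3a1 at -6.55, -5.68 and -4.77. Whole epithelium had 28 fibroblast-like cells and GFP had 2. How much of the collagen ratios comes from that difference in cells was not tested. Of all genes with at least 20 UMIs, 46.3% were higher in GFP and 10% at least 2-fold lower. Of 16 stereocilin relatives and stereocilia genes 7 were measured and none was 2-fold different, with a median of -0.14. Of 10 AP-2 partners and neural crest or epidermal genes 5 were measured, with Grhl3 alone 2-fold higher at 1.0 (0.128 to 1.92).

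Of 9 KHDC1 relatives and oocyte genes 3 were measured. Ooep, of the maternal complex, was lower in GFP with 131 and 1 UMIs, a log2 ratio of -6.69 (-12.0 to -4.18), and Khdc3 was higher with 15 and 26 UMIs. Of 6 neural progenitor genes linked to Dmrta2, Pax6 and Hes1 were measured, at -0.88 and -0.67.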

How the data were processed

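The deposited matrices give UMI counts for each gene in each barcode. Per the submitters' processing notes the authors used Cell Ranger 2.1.1 and mm10, while per the file headers the version was 3.1.0. Each matrix was given to the sample whose barcode list has its number of columns. Barcodes were kept with at least 500 genes, 1000 UMIs and at most 25% mitochondrial UMIs. The 6 genes, the gene lists and the classes were chosen with earlier results of these data known.

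For clustering, each kept cell was scaled to 10000 counts, and 2000 variable genes without the 6, z-scored, gave 30 principal components and 29 clusters (scanpy 1.11.5, leidenalg 0.10.2, resolution 1.0). Clusters were named from fixed markers, at least 3 of them raised 2-fold. An earlier version left genes unscaled, ran fewer iterations and counted globin genes singly. It named shallow and deep epithelial clusters by few markers and was replaced after its class names and sizes had been seen, before levels of the 6 genes by class. No doublet caller was run; values without the 5% deepest cells stand in for it in part. With 1 library per group no test was possible and no p-value was computed. UMI sums carry exact Poisson, shares Clopper-Pearson and ratios exact conditional binomial intervals (scipy 1.17.1). The interval script was tested on simulated independent counts of genes with many UMIs. That test did not cover counts of a few UMIs or UMIs clumped in few cells. Kept UMIs were 137934573 in whole epithelium and 108539028 in GFP. Named genes were the 6 members, their paralogs, the 5 neighbours on each side, up to 3 listed genes past 2-fold, and the genes most like each member; other genes were named after their values were seen. Positions are from GENCODE vM21 and promoter windows from RefSeq GRCm38.p6. Alternatives changed the cell filter, weighting, depth and clustering. Where the cells of Dmrta2os and Gm47061 lie, and the comparison of clusters 13 and 14, were added after seeing the data.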

Additional observations from a re-analysis of the deposited data

Results flagged for a closer look

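Barcodes outside the cell filter, which enter no comparison above, also carried the 6 genes in the GFP library. Of its 13575 barcodes 7808 failed, all of them over the mitochondrial limit, with a median of 4466.5 UMIs and 45.5% mitochondrial UMIs. They held 134 UMIs of Strc, 44 of Tfap2a, 295 of Dmrta2, 49 of Ddr2, 35 of Onecut2 and 103 of Khdc1a. The 6205 failing barcodes of whole epithelium held 0, 0, 7, 0, 3 and 1. Strc stood at 3.21 CPM (2.69 to 3.8) in the failing barcodes of GFP beside 2.66 in its kept cells, and Dmrta2 at 7.06 (6.27 to 7.91) beside 10.3. Tfap2a stood at 1.05 beside 2.13, Ddr2 at 1.17 beside 3.03, Onecut2 at 0.837 beside 0.977 and Khdc1a at 2.46 beside 5.01. These values drew attention because the lower limit for GFP lay above the upper limit for whole epithelium for each gene. The genes were chosen for being nearly confined to GFP, in matrices that include these barcodes. This gap is therefore a description, and nothing is read from it. Whether they are damaged cells or free RNA was not tested.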

How the results depend on the processing

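No paired analysis was possible because each group has 1 library. The log2 ratio stayed positive for all 6 genes under 6 alternatives each, and in 30 of 36 cases it stayed within the interval given above. With equal weight per cell it was 4.95 for Dmrta2 and 3.43 for Ddr2. Without the 10 highest cells of each library it was 6.52 for Dmrta2, 7.01 for Ddr2 (a bound) and 6.17 for Khdc1a, and under the stricter filter (at least 3000 UMIs, at most 10% mitochondrial) 6.79 for Ddr2. Leaving out the 10 highest cells also left 0 UMIs of Strc, Tfap2a and Onecut2 in whole epithelium. Their values of 6.83, 6.47 and 5.01 are thus bounds against 3 UMIs too, though counted among the 30. Nothing is read from the sign, since the genes were chosen on this ratio. The shares of GFP cells moved with every setting. Thinned to 5000 UMIs they were 1.38% (Strc), 0.894% (Tfap2a), 4.68% (Dmrta2), 1.31% (Ddr2), 0.424% (Onecut2) and 1.32% (Khdc1a). In the same order they were 2.91%, 1.84%, 8.32%, 2.43%, 0.803% and 1.71% without a cell filter and 7.06%, 6.12%, 23.3%, 8.76%, 2.23% and 3.49% under the stricter one. Levels in the 3 large GFP classes stayed within their intervals in 77 of 78 cases. At resolution 0.5 and with unscaled genes, a setting added after seeing the data, no GFP cluster of 50 cells was stem/TA-like. Without the 5% deepest cells Khdc1a fell outside its interval in goblet-like cells, at 0.643 CPM. In the middle tertile of depth 8 of 15 differences in co-detection changed sign. For 4 of them the intervals had been apart in all kept cells, and they came to -2.28 percentage points for Strc with Tfap2a, -2.36 for Strc with Dmrta2, -3.32 for Strc with Ddr2 and -3.24 for Tfap2a with Ddr2. The other 4, whose intervals had overlapped, came to -2.28 for Strc with Khdc1a, -1.28 for Tfap2a with Onecut2, -0.11 for Ddr2 with Khdc1a and 0.8 for Onecut2 with Khdc1a. Leaving out cluster 16 or the T/NK-like cluster was also chosen after seeing the data. The cause of these shifts was not tested. With 3 UMIs of Strc and of Tfap2a in whole epithelium, the upper limit of their ratios is set by counting error.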

Other observations

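Of the kept barcodes, 38 of whole epithelium and 31 of GFP occur in the full barcode list of the other library. These held no UMI of Strc, Tfap2a, Dmrta2, Onecut2 or Khdc1a in whole epithelium and 1 of Ddr2. In GFP they held 7 UMIs of Dmrta2, 3 of Tfap2a, 3 of Ddr2 and 14 of Khdc1a. Leaving them out, a comparison added after seeing the data, gave a log2 ratio of 5.53 for Ddr2 and 4.59 for Khdc1a.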
